A study of Mus musculus with 12 samples.

Results

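The 10 genes described here encode receptors for serotonin: Htr1a, Htr1b, Htr1d, Htr1f, Htr2a, Htr2c, Htr3a, Htr4, Htr6 and Htr7. They were taken by name from 21883 protein-coding genes of a RefSeq gene table (build GRCm38.p6, the same as mm10), and all 10 were found. Each was described by the ATAC-seq peaks, that is the stretches of open chromatin, that overlapped its annotated span or the 20 kb on either side, 1220 kb of sequence in all. The other 4 receptor genes (Htr2b, Htr3b, Htr5a and Htr5b) are described briefly near the end.

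The chromatin came from neurons of the infralimbic part of the prefrontal cortex. The mice were adult C57BL/6 males of 10 to 12 weeks, each conditioned in context A with 3 tone and shock pairings. A day later, in context B, extinction-trained mice (EXT) heard 60 tones, and retention control mice (RC) stayed there for as long without tones. Cortex was taken directly afterwards, tissue of 5 mice was pooled for each library, and 50000 sorted cells positive for both Arc, an activity-induced protein, and NeuN, a neuronal nuclear protein, were used. A replicate is therefore a pool of animals. The sort shared by all libraries means that neurons without Arc and mice that were never conditioned are not part of any comparison below.

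Peak lists of 3 libraries reached the 10 genes: RC replicate 3 (73.8 M tags, 97961 peaks), EXT replicate 1 (65.0 M tags, 80735 peaks) and EXT replicate 2 (57.7 M tags, 123375 peaks). The lists of RC replicates 1 and 2 end on chromosome 1, where none of the 10 genes lies, and EXT replicate 3 and the lncRNA capture libraries were not analysed here. With 1 RC list against 2 EXT lists no test between the groups was possible, and every difference between them below is a description of these 3 libraries. Values given in threes follow the order above, the RC library before EXT replicate 1 and then EXT replicate 2. Neuronal markers carried promoter peaks in 4, 4 and 5 of 5 genes with a start and excitatory markers in 3, 3 and 4 of 4. Inhibitory markers did so in 2, 3 and 3 of 6 genes, astrocyte markers in 1 of 5 in every list, endothelial markers in 2, 1 and 2 of 4, oligodendrocyte markers in 0, 0 and 1 of 3, and microglial markers in 0 of 3 in every list. The gene of NeuN itself, Rbfox3, had a promoter peak in EXT replicate 2 alone, at a fold of 1.88 and within-list percentile 0.0940, so the marker of the sort was not visible as an open promoter in the other lists.

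Serotonin reaches the prefrontal cortex through fibres of the raphe nuclei and acts there on several receptor families. Htr1a, Htr1b, Htr1d and Htr1f encode receptors that couple to inhibitory Gi/o proteins and lower cyclic AMP. Htr2a and Htr2c encode receptors that couple to Gq and phospholipase C, Htr4, Htr6 and Htr7 encode receptors that couple to Gs and raise cyclic AMP, and Htr3a encodes a subunit of a ligand-gated cation channel. In the cortex Htr1a and Htr2a are best known from pyramidal cells and Htr3a from a class of interneurons.

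The receptor genes had promoter peaks about as often as protein-coding genes in general, and no receptor promoter separated the EXT libraries from the RC library. A promoter was called open when a peak overlapped the 1 kb either side of an annotated start by at least 1 bp, and 8 of the 10 genes had such a start (Htr3a and Htr4 did not). In RC replicate 3 there were 5 of 8 genes with a promoter peak, beside 55.4% of all 17491 protein-coding genes with a start. EXT replicate 1 also had 5 of 8 (all genes 53.6%), and EXT replicate 2 had 5 of 8 (all genes 60.1%). Htr1a, Htr1b, Htr1d and Htr6 were open in all 3 lists, 4 of 8 genes beside 49.9% of all genes. Htr1f and Htr2c were open in none, 2 of 8 beside 37.5%. No receptor gene had a promoter peak in both EXT lists without one in RC replicate 3 (0 of 8, all genes 2.00%), and none had one in RC replicate 3 alone (0 of 8, all genes 0.680%). The remaining genes split the lists without following the groups: Htr2a was open in RC replicate 3 and EXT replicate 2, and Htr7 in EXT replicate 1. With 8 genes, none of these counts lay more than 1 gene from the number that the share of all genes gives. The count of 4 depended on the settings. With peaks of at least 200 bp, Htr1b was the 1 gene open in every list, and with lists of equal length 2 genes were. Both settings remove peaks from the lists, and the share of all genes under them is not given here. A site open in fewer cells and a site less open in each cell cannot be told apart in these pooled cells.

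The promoter sequences show where the peaks lay. The 300 bases of RefSeq (build GRCm38.p6), 250 before to 50 after a start, are printed 5′ to 3′ on the gene's strand for the genes open in every list, with capitals for bases inside the peaks of all 3 lists. Htr7 is added as the promoter richest in CpG among the members, chosen after its values were seen. The stretches are chr13:105443443-105443742 on the plus strand for Htr1a, chr9:81633783-81634082 on the minus strand for Htr1b, chr4:136424362-136424661 on the plus strand for the downstream start of Htr1d, chr4:139075521-139075820 on the minus strand for the outer start of Htr6 and chr19:36057311-36057610 on the minus strand for Htr7.
Htr1a: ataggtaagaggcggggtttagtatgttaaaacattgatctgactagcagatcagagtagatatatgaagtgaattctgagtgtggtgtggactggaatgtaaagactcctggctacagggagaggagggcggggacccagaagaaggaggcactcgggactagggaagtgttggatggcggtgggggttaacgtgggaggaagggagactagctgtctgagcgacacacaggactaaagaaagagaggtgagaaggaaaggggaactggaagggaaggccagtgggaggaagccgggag
Htr1b: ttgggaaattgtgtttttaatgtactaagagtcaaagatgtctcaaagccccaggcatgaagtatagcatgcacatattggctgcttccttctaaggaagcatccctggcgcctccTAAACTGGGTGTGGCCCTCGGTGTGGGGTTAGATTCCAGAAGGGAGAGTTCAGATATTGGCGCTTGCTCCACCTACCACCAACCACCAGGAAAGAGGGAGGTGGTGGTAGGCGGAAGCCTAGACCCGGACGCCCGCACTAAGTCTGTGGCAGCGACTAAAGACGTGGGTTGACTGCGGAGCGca
Htr1d: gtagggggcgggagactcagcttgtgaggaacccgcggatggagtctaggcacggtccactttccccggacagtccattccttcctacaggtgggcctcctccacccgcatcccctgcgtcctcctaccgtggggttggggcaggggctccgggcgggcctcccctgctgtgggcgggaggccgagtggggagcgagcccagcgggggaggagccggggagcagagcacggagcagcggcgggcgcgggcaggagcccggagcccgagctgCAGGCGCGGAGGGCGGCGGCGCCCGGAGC
Htr6: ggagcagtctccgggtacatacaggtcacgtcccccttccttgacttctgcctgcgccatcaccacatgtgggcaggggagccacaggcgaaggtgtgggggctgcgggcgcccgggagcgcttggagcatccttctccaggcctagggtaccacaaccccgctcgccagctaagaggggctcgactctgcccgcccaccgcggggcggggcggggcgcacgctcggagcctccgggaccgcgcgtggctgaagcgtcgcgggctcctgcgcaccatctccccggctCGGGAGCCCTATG
Htr7: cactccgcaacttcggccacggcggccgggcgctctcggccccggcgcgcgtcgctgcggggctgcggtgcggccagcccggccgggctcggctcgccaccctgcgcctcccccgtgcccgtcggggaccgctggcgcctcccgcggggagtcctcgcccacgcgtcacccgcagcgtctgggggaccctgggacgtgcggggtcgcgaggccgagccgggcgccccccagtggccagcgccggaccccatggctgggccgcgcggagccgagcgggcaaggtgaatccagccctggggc
Htr1b was the promoter whose printed stretch was most covered, with 182 bases inside peaks of all 3 lists. Htr1d had 29 and Htr6 had 13 such bases, all after the start, because the peaks of these 2 genes began just inside the transcribed part. Htr1a and Htr7 had 0, since the peaks that made Htr1a count as open lay further downstream.

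The printed promoters differed widely in base composition. CpG pairs numbered 7 in Htr1a, 11 in Htr1b, 28 at the downstream start of Htr1d, 29 at the outer start of Htr6 and 46 in Htr7, whose GC content was 81%. For all protein-coding genes, a gene with several starts was taken at the start with the most CpG pairs. The median was then 23 CpG pairs for genes open in all 3 lists (n = 8732), 14 for those open in 1 or 2 (n = 2200) and 3 for those open in none (n = 6559). Htr1a and Htr1b thus counted as open in every list with fewer CpG pairs than the lower quartile of that class, which was 16. For Htr1a the CpG pairs were counted outside its peaks, which began 0.77 to 0.91 kb downstream of the start. Htr7, in contrast, had 46 CpG pairs and a peak in EXT replicate 1 alone, also outside the printed stretch. The unopened promoters of Htr1f and Htr2c had 13 and 5.

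Motifs were searched as letters on both strands, and a match is a description only. The GC box GGGCGG (reverse CCGCCC), present in 35.7% of 32851 RefSeq promoters, occurred in Htr1a, Htr1f and Htr2a, once at the upstream and 4 times at the downstream start of Htr1d, and 3 times at the outer start of Htr6. Of these matches, the one that begins at position 31 after the downstream start of Htr1d lay inside the peaks of all 3 lists. CCAAT (reverse ATTGG), in 37.4% of promoters, occurred in Htr2c, at the upstream start of Htr1d and in Htr1b at positions -174 and -79 from the start, the latter inside the peaks of all 3 lists. The cyclic AMP response element TGACGTCA (1.79% of promoters), the AP-1 motif TGAGTCA (reverse TGACTCA, 5.2%) and TATAAA (reverse TTTATA, 13.6%) were not found in these windows of the 8 genes. The core TGACG (reverse CGTCA), held by 20.8% of promoters and contained in the full element, occurred in Htr7 at position -87.

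**Figure D1:**
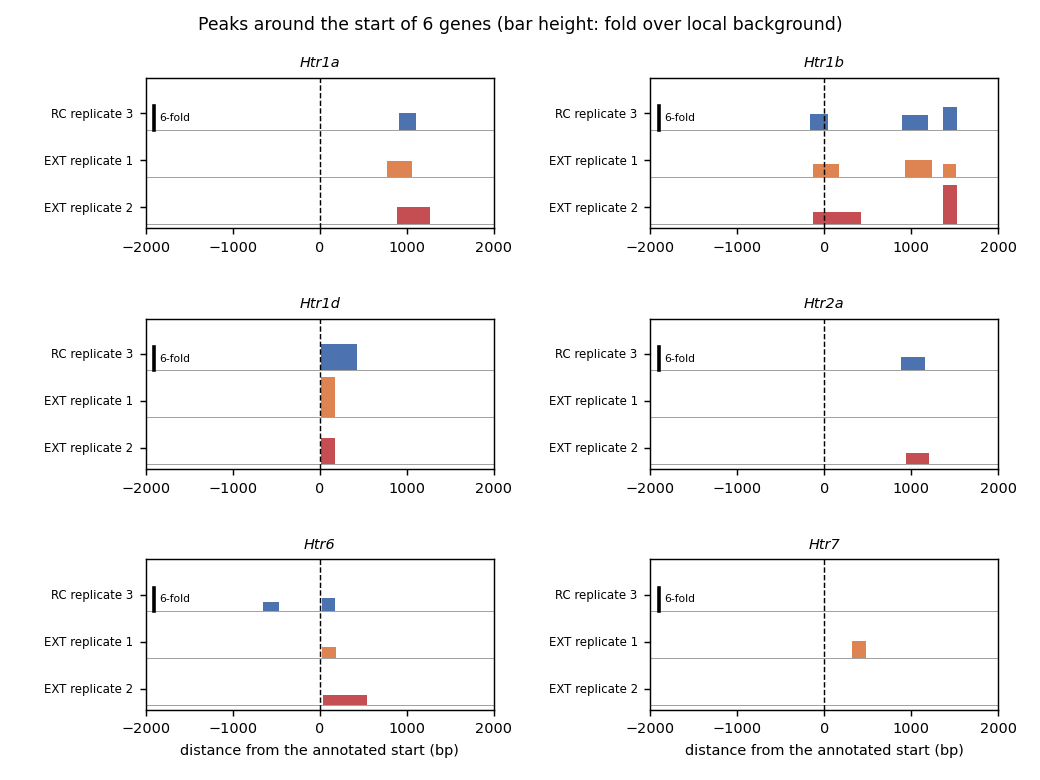
Peaks within 2 kb of the annotated start (dashed line, 0 on the horizontal axis, distance in bp along the gene's strand) of 6 receptor genes for RC replicate 3 and for EXT replicates 1 and 2; each bar spans a peak and its height is the peak's fold over local background on the scale of the 6-fold bar. Htr1b, Htr1d and Htr6 have peaks at the start in all 3 libraries, the Htr1a peaks begin 0.77 to 0.91 kb downstream, and Htr7 has a peak in EXT replicate 1 alone.

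Among the Gi/o-coupled receptors, Htr1a, the autoreceptor of raphe neurons and an inhibitory receptor of pyramidal cells, had a single open region in its 44.4 kb window (gene chr13:105443693-105448133). It was in all 3 lists, with widths of 197, 288 and 385 bp in library order. The fold enrichment, the authors' value for how far the tag pileup exceeded the background nearby, was 4.33, 4.02 and 4.27. In the ranking of each list the peak had the percentiles 59.4, 57.3 and 48.3, where the percentile is the share of that list's peaks with an equal or lower fold. Percentiles of lists of different lengths are set side by side here as descriptions of each list and show no change between libraries. The peak was thus of middling fold in each library, and it began 0.77 to 0.91 kb downstream of the start, inside the gene. Ranked by pileup it stood lower, at percentiles 32.7, 28.5 and 22.1.

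Htr1b, a presynaptic receptor that limits transmitter release, had 4 regions, 2 of them in all lists (gene chr9:81628291-81633832, minus strand). The peak over the start itself had folds of 4.07, 3.28 and 2.89, at percentiles 54.5, 36.4 and 14.0. It thus stood near the middle of the RC list and below the middle of both EXT lists, and its width was 215 bp in the RC library and 300 and 553 bp in the EXT libraries. Further inside the gene, at chr9:81632304-81632464, a narrow peak of 161, 150 and 161 bp had folds of 5.83, 3.29 and 9.82. That one ranked at percentiles 77.7, 36.6 and 91.7, that is high in the RC list, low in that of EXT replicate 1 and high in that of EXT replicate 2. Between these, the region chr9:81632590-81632937 touched the promoter window in RC replicate 3 (fold 3.67, percentile 46.1) and EXT replicate 1 (fold 4.33, percentile 62.1). The narrow peak and this region lay within 1 kb of the start of the lncRNA gene D430036J16Rik, which overlaps Htr1b, so these peaks cannot be given to a single gene. The strongest flanking peak lay downstream at chr9:81626995-81627276, with a fold of 4.77 in RC replicate 3 and 7.29 in EXT replicate 2 and no peak in EXT replicate 1.

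Htr1d, another presynaptic receptor of the same coupling, had the strongest promoter of the 10 genes by within-list rank of fold (gene chr4:136423522-136444405, plus strand). Its peak began 21 bp after the downstream of its 2 starts, at chr4:136424633, and had folds of 6.86, 10.3 and 6.76. The percentiles were 85.7, 97.0 and 78.4, in the upper part of every list. In RC replicate 3 the peak was 414 bp wide, whereas in both EXT lists it ended at the same base, 160 bp from its start. No other peak lay inside the gene in any list. In the flanks, the peak of highest rank covered the lower end of the neighbouring gene Luzp1, at chr4:136462488-136463174, with folds of 6.29, 7.63 and 7.53. A weak region about 11 kb upstream was in all 3 lists at folds of 3.47, 3.54 and 2.84.

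Htr1f, the receptor targeted by a class of migraine drugs, had no promoter peak in any list but 10 regions over its 181 kb span and flanks (gene chr16:64924729-65105784, minus strand). The nearest peak to its start was 3.31 kb away in RC replicate 3, 22.7 kb in EXT replicate 1 and 4.10 kb in EXT replicate 2. The 2 regions shared by all lists lay deep in the gene. At chr16:65022289-65023054, about 83 kb from the start, the folds were 5.20, 6.92 and 11.1 (percentiles 71.4, 87.9 and 94.5). At chr16:64933955-64934461, about 172 kb from the start, they were 3.32, 5.38 and 11.7 (percentiles 37.4, 76.3 and 95.5). Both regions stood high in the EXT lists, and in the RC list the former stood high and the latter below the middle. EXT replicate 2, the longest of the lists, also held 6 of the 10 regions of Htr1f alone, 5 of them inside the gene at folds of 4.48 to 6.04. Of all regions of the genome, 29.2% were in this list alone. Beyond the 3′ end, the 160 bp peak chr16:64919661-64919820 close to the pseudogene Gm16385 had a fold of 9.39 in RC replicate 3 (percentile 95.3) and 5.31 in EXT replicate 1, and EXT replicate 2 had its flanking peak at another position, chr16:64918633-64918795 (fold 9.78, percentile 91.6).

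**Figure D2:**
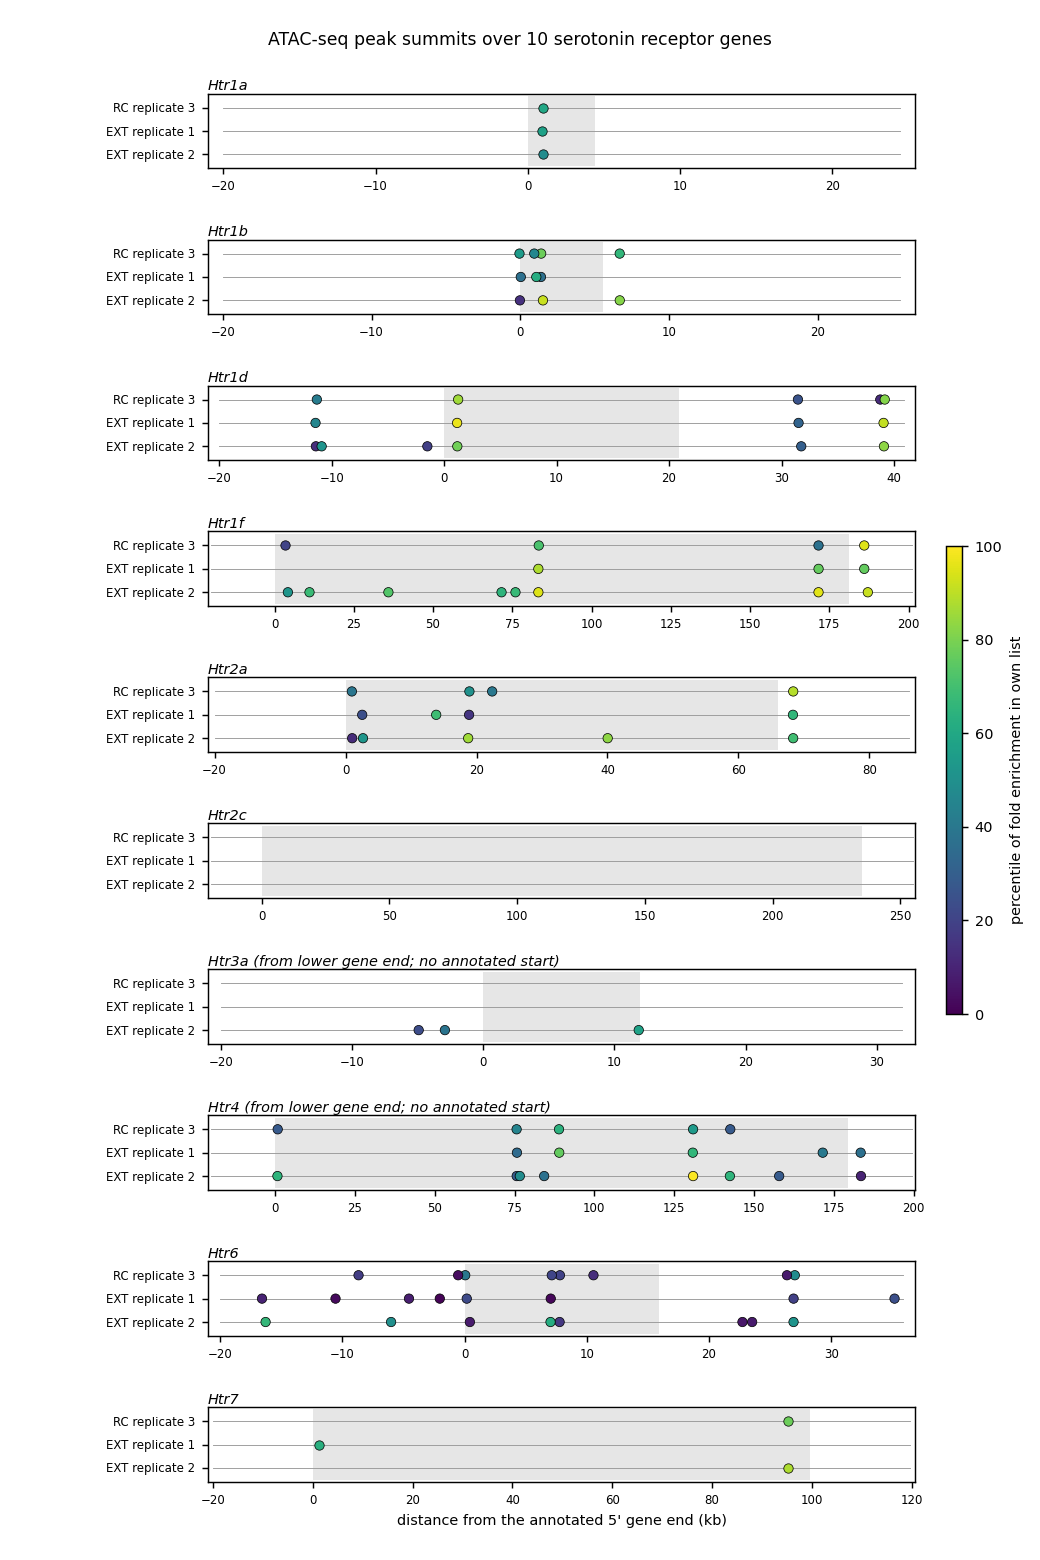
Peak summits at the 10 receptor genes for RC replicate 3 and EXT replicates 1 and 2; the horizontal axis is the distance in kb from the 5′ end of the gene (from its lower end for Htr3a and Htr4), the grey box is the annotated gene, and the colour of a point is the percentile of its fold within its own list. Htr2c has no point in any library, Htr3a has points in EXT replicate 2 alone, and the points of Htr1f, Htr2a and Htr4 lie mostly inside the gene.

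Among the Gq-coupled receptors, Htr2a, the main excitatory serotonin receptor of cortical pyramidal cells, had 7 regions (gene chr14:74640874-74706859, plus strand). A weak promoter peak almost 1 kb inside the gene had a fold of 3.41 in RC replicate 3 (percentile 39.2) and 2.83 in EXT replicate 2 (percentile 12.2). EXT replicate 1 had none there, its nearest peak being 2.48 kb from the start. The lncRNA gene Gm41210 starts within 1 kb of that peak. The strongest region inside Htr2a, chr14:74659425-74660126, was in all lists with folds of 3.89, 2.78 and 8.08. Its percentiles of 50.4, 15.5 and 85.6 put it in the middle of the RC list, low in that of EXT replicate 1 and high in that of EXT replicate 2. Downstream of the gene a 160 bp peak (152 bp in EXT replicate 1) at chr14:74709173-74709332 had folds of 7.37, 4.51 and 5.69, highest in RC replicate 3 at percentile 88.7. The best-ranked peaks of single lists inside the gene were 160 bp wide in EXT replicate 1 (chr14:74654685-74654844, fold 4.78) and 161 bp wide in EXT replicate 2 (chr14:74680871-74681031, fold 7.54).

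Htr2a also held the only region inside a receptor gene that both EXT lists held and RC replicate 3 lacked. It lay at chr14:74643349-74643659, about 2.5 to 2.7 kb inside the gene. The fold was 2.99 in EXT replicate 1, at percentile 24.1, and 4.52 in EXT replicate 2, at percentile 52.5. The peak was thus weak in EXT replicate 1 and middling in EXT replicate 2, and its −log10 q of 3.44 in EXT replicate 1 is below the stricter limit of 5.

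Htr2c, the X-linked Gq-coupled receptor whose RNA is edited in the brain, had no peak at all in its 275 kb window in any of the 3 lists (gene chrX:146962464-147197277, plus strand). A window without a peak in any list occurred for 13.8% of all 21883 protein-coding genes. Of the 783 windows at least as long as that of Htr2c, 7 (0.894%) were empty, the others being those of Brinp3, Gm4724, Ndst4, Zfp993, Gm40862 and Gm21154. The nearest peaks lay 1007 to 1008 kb before the gene and 378 kb after it, with the same bounds after it in all 3 lists (chrX:147575226-147575385). The stretch without a region, chrX:145955509-147575225, was 1.62 Mb long and also held Il13ra2 and Lrch2. Of 168491 stretches between neighbouring regions, 17 were at least as long, 4 of them among the 2400 on chromosome X.

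Chromosome X was sparse in peaks as a whole, and these values stand beside the result on Htr2c. Of 966 protein-coding windows on it, 319 (33%) had no peak, and of the 34 at least as long as that of Htr2c, that of Htr2c was the single empty one (2.94%). Promoter peaks were found at 29.5%, 28.3% and 39% of 817 protein-coding genes of this chromosome in the 3 libraries. Male mice carry a single copy of it, and how far this lowered the number of peaks was not tested. The absence of a peak says that no stretch passed the authors' threshold and not that the gene is closed in every neuron.

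The channel subunit gene Htr3a had no peak in RC replicate 3 or EXT replicate 1 and 3 in EXT replicate 2 (gene chr9:48899213-48911152). One of these, 322 bp wide, lay at the upper gene end with a fold of 4.80 (percentile 57.7). Below the lower end, a peak 324 bp wide with a fold of 3.82 lay within 1 kb of the start of the lncRNA gene Gm32335, and another had a fold of 3.20. EXT replicate 2 therefore differed as much from EXT replicate 1 as from the RC library here.

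Among the Gs-coupled receptors, Htr4, known for its part in pyramidal cell excitability and in memory, held the highest-ranked peak of all the receptor genes (gene chr18:62323546-62503027). The peak chr18:62454196-62455103, inside the gene, was in all 3 lists with folds of 4.04, 4.51 and 16.3. The percentiles were 54.1, 65.8 and 99.3. The region was thus near the top of the list of EXT replicate 2 and in the middle part of the other lists. The deposited pileup behind these folds was 27, 27 and 102, read as tags because the values are whole numbers, although the file headers set an option that scales signal by library size. A peak at the lower gene end had folds of 3.03 in RC replicate 3 and 5.33 in EXT replicate 2. In EXT replicate 1 and RC replicate 3 the highest-ranked peak was another, chr18:62412404-62412563, 160 bp wide in both, with folds of 5.31 and 4.62, and it was not in EXT replicate 2. Beyond the upper end, in the span of Fbxo38, a weak region at chr18:62506808-62507151 was held by both EXT lists (folds 3.28 and 2.72) but lacking in RC replicate 3.

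Htr6, a receptor known mainly from the brain, had the most regions, 16, most of them low in fold (gene chr4:139059706-139075570, minus strand). The folds of its peaks ran from 2.2 to 5.50 over the 3 lists. The promoter peak, which began 27 bp inside the outer start in RC replicate 3 and EXT replicate 1 and 37 bp inside it in EXT replicate 2, had folds of 3.45, 2.94 and 2.62. Its percentiles of fold were 40.0, 22.4 and 7.3, below the middle of every list, and its width was 150, 160 and 503 bp. Ranked by pileup, the same peaks stood at percentiles 81.9, 71.8 and 66.7, above the middle of every list. RC replicate 3 had a further promoter peak with its summit at -0.534 kb from the start, at a fold of 2.31 (percentile 3.3). Other regions of all 3 lists were chr4:139048411-139048916 in the span of Tmco4 (folds 3.76, 2.89 and 4.46), which held the best-ranked peak of RC replicate 3 at percentile 48.4, and chr4:139068102-139068745 inside the gene (folds 2.87, 2.29 and 5.14). EXT replicate 1 had its best-ranked peak at chr4:139040364-139040528, also in Tmco4, at percentile 24.0. A region within 1 kb of the start of the neighbour Nbl1, chr4:139091735-139092167, was held by both EXT lists, at folds of 2.63 (percentile 9.8) and 5.50 (percentile 66.4), but lacking in RC replicate 3. By fold, the peak of EXT replicate 2 there was the best-ranked of that list at Htr6, while that of EXT replicate 1 was near the bottom of its list.

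Htr7, a receptor known from the thalamus and the control of circadian rhythm, had 2 regions (gene chr19:35958415-36058133, minus strand). Its promoter window had a peak in EXT replicate 1 alone, 161 bp wide with a fold of 4.34 (percentile 63.2). That peak began 0.32 kb downstream of the annotated start, outside the printed CpG-rich stretch. The annotated start, at 36057360, and the printed stretch themselves lie inside the gene span. The peak lay more than 1 kb from the 5′ end of that span. In the other lists the nearest peak to the start was 25.7 kb (RC replicate 3) and 25.4 kb (EXT replicate 2) away, outside the window. Near the 3′ end, RC replicate 3 and EXT replicate 2 shared a 160 bp peak with identical bounds, chr19:35962818-35962977, at folds of 5.78 and 8.53 (percentiles 77.4 and 87.6), and EXT replicate 1 had none. At both regions the RC library thus had the state of EXT replicate 2 and the opposite of EXT replicate 1.

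Across the 10 genes the RC library's number of peaks lay between those of the EXT libraries in the full lists. RC replicate 3 held 32 peaks, EXT replicate 1 held 29 and EXT replicate 2 held 43, in the same order as the lengths of the lists. With lists of equal length the numbers were 26, 29 and 29, so the RC library was then the lowest. By position, 7, 6 and 5 of them touched a promoter window, 1, 0 and 2 an end of Htr3a or Htr4, 14, 11 and 20 lay elsewhere inside a gene and 10, 12 and 16 in the flanks. The density was 2.62, 2.38 and 3.53 peaks per 100 kb, beside 6.11, 5.14 and 7.45 over the windows of all protein-coding genes, which overlap each other and count some peaks more than once. The pooled density at the receptor loci was the lower of the pair in each of the 3 libraries. Pooling gives long windows more weight, and not every gene was low. By gene the density ran from 0 at Htr2c to 14.3 at Htr6 in every list. The median percentile of member peaks was 43.3, 36.6 and 52.5, below the middle of the list in RC replicate 3 and EXT replicate 1. At or above percentile 90 there were 1, 2 and 5 of them.

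**Figure D3:**
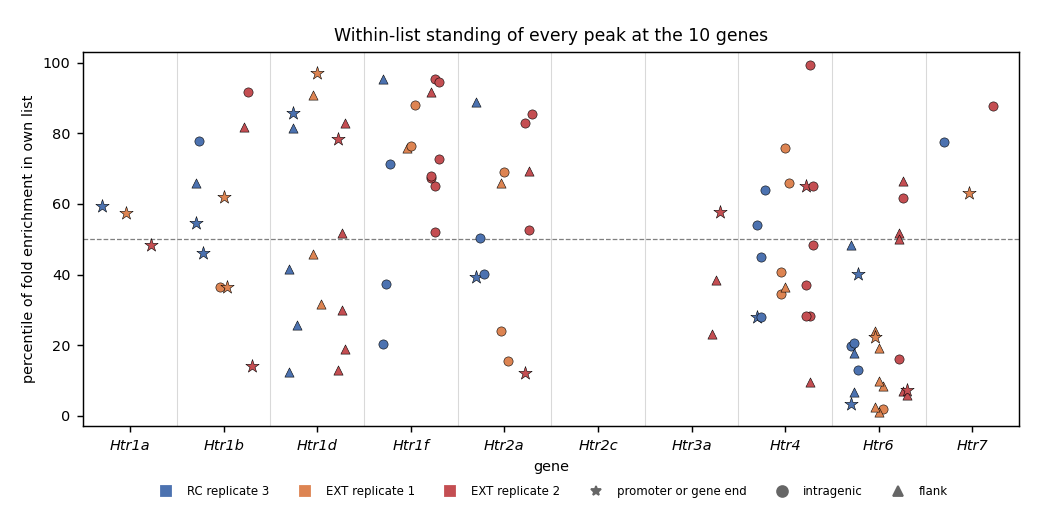
Percentile of fold enrichment within its own list (vertical axis, %) for every peak at the 10 receptor genes (horizontal axis), coloured by library and shaped by position; the dashed line marks percentile 50. Htr6 peaks lie below percentile 50 in RC replicate 3 and EXT replicate 1, Htr1d promoter peaks (stars) lie between 78.4 and 97.0, and the highest point is the Htr4 peak of EXT replicate 2 at 99.3.

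When overlapping peaks of the 3 lists were merged, the 10 loci held 60 regions, and their spread over the lists resembled that of the whole genome. All 3 lists shared 16 regions (26.7%, all 168512 regions 25.8%). Both EXT lists without RC replicate 3 shared 3 (5.0%, all regions 4.34%), and RC replicate 3 alone held 7 (11.7%, all regions 10.7%). EXT replicate 1 alone held 7 (11.7%, all regions 9.38%) and EXT replicate 2 alone held 18 (30.0%, all regions 29.2%). RC replicate 3 shared 3 regions with EXT replicate 1 alone (5.0%, all regions 7.14%) and 6 with EXT replicate 2 alone (10.0%, all regions 13.4%). The 3 regions of both EXT lists are those at Htr2a, Htr4 and Htr6 given above, and the regions of RC replicate 3 alone all ranked below percentile 50. Without EXT replicate 1, 21 regions were in the EXT list and not the RC list and 10 the reverse, and without EXT replicate 2 there were 10 and 13. Both counts rise by construction when 1 EXT list is left, and the same counts over all regions are not given here.

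**Figure D4:**
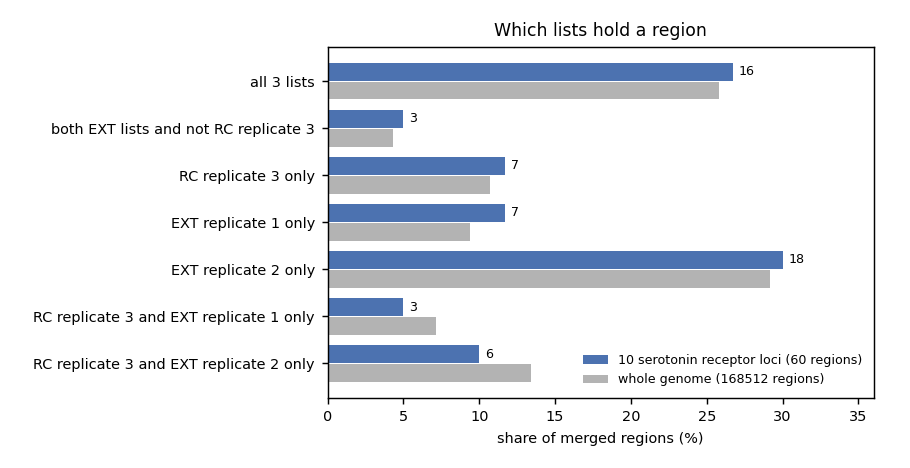
Share of merged regions (horizontal axis, %) found in each combination of lists, for the 60 regions of the 10 receptor loci (blue, numbers of regions beside the bars) and all 168512 regions of the genome (grey). The blue and grey bars are close in every combination, with 16 regions in all 3 lists and 3 in both EXT lists but not RC replicate 3.

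Many peaks at these genes were narrow. The commonest peak width in each list was 160 bp, close to the 150 bp to which the authors extended each tag. Peaks under 200 bp made up 50%, 51.7% and 27.9% of member peaks, beside 48.8%, 48.1% and 39.5% of the whole lists. Of 28 member regions in at least 2 lists, 6 (21.4%, all such regions 28.0%) had a peak with the same first and last base in at least 2 libraries. They were the intragenic peak of Htr1b, the promoter peak of Htr1d, the 3′ flanking peaks of Htr1f and Htr2a, the 160 bp peak inside Htr4 and the one inside Htr7. All duplicate tags were kept when the authors called peaks, and the part of duplicates in these narrow peaks was not tested.

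Other genes of the serotonin system were counted by role. Of 8 genes for Gi/o, Gq and Gs signalling partners with an annotated start, all 8 had a promoter peak in each list. Of 8 genes for synthesis, transport and breakdown, 2, 3 and 4 had one. Slc22a3, a low-affinity transporter (folds 3.61, 5.63 and 6.22), and Maoa, which breaks serotonin down (folds 4.48, 6.28 and 5.51), were open in all lists. Ddc, the decarboxylase of serotonin synthesis, Slc6a4, the serotonin transporter, and Fev, a transcription factor of serotonergic neurons, were open in none. Of the other receptors, 3 with a start, Htr5a was open in every list (folds 9.20, 5.12 and 11.8) and Htr3b, the partner subunit of Htr3a, in none. Htr2b lies on the part of chromosome 1 that the list of RC replicate 1 reached. It had a promoter peak in RC replicate 3 (fold 2.83), RC replicate 1 (fold 6.40) and EXT replicate 2 (fold 6.22) and none in EXT replicate 1. Htr5b, also on that part of chromosome 1 and without an annotated start, had 3 peaks in each of RC replicate 3 and EXT replicate 1, 6 in EXT replicate 2 and 7 in RC replicate 1. A peak at its gene end was in RC replicate 1 (fold 3.44) and EXT replicate 2 (fold 4.05) and in neither of the others, so at Htr5b both groups were split, and at Htr2b the EXT libraries were.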

How the data were processed

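Peak lists of ATAC-seq libraries (3 RC, 2 EXT) were read, with groups from the sample titles. Per the file headers, MACS2 2.2.4 was run on every library by itself, without a control, with a shift of -75 bp, an extension of tags to 150 bp, all duplicates kept and a q-value cutoff of 0.05. Which aligner was used is not given in the sources here, and the submitters' processing notes name HISAT2 2.1.0 and BWA 0.7.17. The deposited pileup is a signal, the coverage by extended tags at the summit. The deposited fold enrichment is the authors' ratio of pileup to local background, and the authors tested the peaks against it to give −log10 p and −log10 q. Such values served to rank peaks inside their list; ranks of different lists are set side by side as descriptions and show no change between libraries, since the lists differ in length. Pileups were read as unscaled tags because they are whole numbers, although an option in the file headers scales signal by library size.

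Peaks were joined to gene spans of a RefSeq table with Python 3.11.15, pandas 2.3.3 and numpy 2.4.6, and the interval code was tested on simulated intervals. Starts came from the RefSeq promoter table, which holds 8 of the 10 genes, so Htr3a and Htr4 were counted at either gene end and kept out of the promoter counts. Peaks of 3 lists were merged where they overlapped by at least 1 bp. Depth was 57.7 M to 73.8 M tags per library; without counts per region, precision is the spread between libraries, and no interval was given. Named were all 10 genes with their promoter peaks, their highest-ranked peak per list, and regions in both EXT lists or in RC replicate 3 alone at percentile 50 or more; further peaks were named after their values were seen. Members and lists were chosen with earlier results of these data known. Alternatives were lists of equal length, a −log10 q of at least 5, peaks of at least 200 bp, windows of 500 bp and 2 kb, the summit, flanks of 10 and 50 kb, a stricter overlap, other ranks, leaving out a library and, chosen after seeing the data, 2 other definitions of the start.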

Additional observations from a re-analysis of the deposited data

How the results depend on the processing

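Of 82 alternative values, 54 stayed close to the reported ones and 28 moved; no count of genes is a test, so none gained or lost a call. With −log10 q of at least 5, promoter peaks fell to 3 genes in EXT replicate 2, EXT replicate 1 kept 14 peaks, 7 regions were in every list and 1 in both EXT lists only. With lists of equal length, 2 genes were open in EXT replicate 2 and 2 in every list. The peaks at the loci then numbered 26 in RC replicate 3 and 29 in each EXT library. These were counted as close, although the order of the libraries changed. Peaks of at least 200 bp left promoter peaks at 3 genes (RC replicate 3), 2 (EXT replicate 1) and 1 (every list), with 16 and 14 peaks in RC replicate 3 and EXT replicate 1, 6 regions in every list, 5 in both EXT lists only and 3 in RC replicate 3 alone. The 500 bp window gave 3 genes in RC replicate 3 and 3 in EXT replicate 2, the summit 3 in EXT replicate 2, and the outer gene end as the only start 3 in EXT replicate 1. Flanks of 50 kb gave 56, 49 and 74 peaks (RC replicate 3, then EXT replicates 1 and 2), 27 regions in every list, 5 in both EXT lists only and 15 in RC replicate 3 alone. Ranked by pileup, the median percentile in EXT replicate 2 was 43.9. Leaving out a library gave 10 to 21 EXT-only regions, 10 to 13 RC-only regions, 19 to 22 in every list and 4 to 5 genes open in every list. With fewer lists each of these patterns asks for less, so higher counts follow by construction. Stricter settings hold fewer peaks by construction, and other causes were not tested. The shares of all genes or regions under the alternatives are not given here. No paired analysis was possible because 1 RC list alone reaches the 10 genes. With 1 RC library, the spread within that group is unknown at these loci.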
